A study of Mus musculus with 138 samples.

Results

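The 10 genes described here are the measured core of the hedgehog pathway in the mouse calvarial suture: the ligand gene Ihh, the receptor gene Ptch1, the antagonist gene Hhip, the co-receptor genes Boc, Cdon and Gas1, the signal transducer gene Smo, the inhibitor gene Sufu and the transcription factor genes Gli2 and Gli3. They were chosen by name, as members of the pathway, out of the 55487 genes of the deposited count tables. All 10 were among the 19768 genes that passed the filter on low counts (at least 1 CPM, a count scaled to the size of its library as counts per 1e6 counts, in over 10% of the libraries). Hhip was selected by the study on these same libraries, so that its coronal pattern is a description and not independent evidence.

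All samples were wild-type C57BL/6J mouse embryos at E16.5 or E18.5, with no transgene, mutation or treatment. The suture mesenchyme (SM), the undifferentiated tissue between 2 calvarial bones, and the osteogenic front (OF), the growing edge of a bone, had been captured by laser from the coronal, frontal, lambdoid and sagittal sutures. The fronts are named by their bone, as frontal (FR), parietal (PA) or interparietal (IP). This gave 20 groups of a suture, age and region with 5 embryos each, 100 libraries from 40 embryos in all, beside 18 second libraries of coronal samples, 16 libraries of complete sutures at E18.5 and 4 single-cell libraries of dissociated coronal sutures. Total counts of the 100 libraries lay between 7305627 and 34518477, and the coronal groups were the deepest, with a median of 26943759 for E16.5 and 22696696 for E18.5. No embryo gave tissue of more than 1 suture, so that levels in different sutures are also levels in different animals and library sets. The captured regions are bulk tissue, in which more cells of a type and more RNA per cell cannot be told apart.

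Hedgehog ligands are secreted proteins that bind PTCH1 on a receiving cell, which releases SMO from inhibition and turns the GLI factors from repressors into activators of transcription. PTCH1, GLI1 and HHIP are themselves induced by the signal, and PTCH1 and HHIP bind and sequester the ligand, which makes them negative feedback components. In membranous bone the ligand made by osteoblasts is Indian hedgehog (IHH), and mice without GLI3 are known for premature fusion of sutures.

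The captured tissue carried the markers of its labels. The summed level of 9 osteoblast genes (among them Ibsp, Sp7 and Spp1) had group means of 3208 to 14938 CPM in the OFs. In the SM it was 60.4 to 178 CPM in the frontal, lambdoid and sagittal sutures and 395 to 525 CPM in the coronal suture. In these separately made libraries the coronal SM thus held more osteoblast RNA than the other SMs, while Bglap and Bglap2, markers of mature osteoblasts, were at 0 in 38 and 55 of the 100 libraries. A list of 7 suture mesenchyme genes (among them Erg and Cd34), which the study chose on these samples, summed to 2196 to 2296 CPM in the coronal SM and 851 to 1304 CPM in the other SMs. In the OFs it summed to 992 to 1641 CPM (coronal) and 583 to 958 CPM (others). The part of these differences in the results below was not tested.

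Most members differed between SM and OF. In the 12 comparisons of SM with an OF of the same embryos, 74 of 120 tests of members passed the threshold (61.7%, adjusted p under 0.05 in edgeR's quasi-likelihood test with the embryo as a block), beside 19% of the tests of all genes. At E16.5 in the coronal suture, 6 of the 10 members passed against the FR and 6 against the PA, where 27.2% and 33.3% of all genes did. At E18.5 the coronal counts were 3 (FR, background 3.53%) and 7 (PA, background 17.9%). In the frontal suture 6 members passed at E16.5 and 7 at E18.5, beside 8.81% and 11.3% of all genes. In the lambdoid suture 6 passed at E16.5 against the IP and 6 against the PA (12% and 24.1% of all genes), and 7 and 6 at E18.5 (20.3% and 24.9%). In the sagittal suture 7 passed at each age, beside 18.4% and 26.1%. Ihh and Ptch1 were lower in SM throughout, the co-receptors were higher where they passed, Hhip was higher in 3 comparisons and lower in 8, and Smo, Sufu, Gli2 and Gli3 passed in few comparisons.

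**Figure D1:**
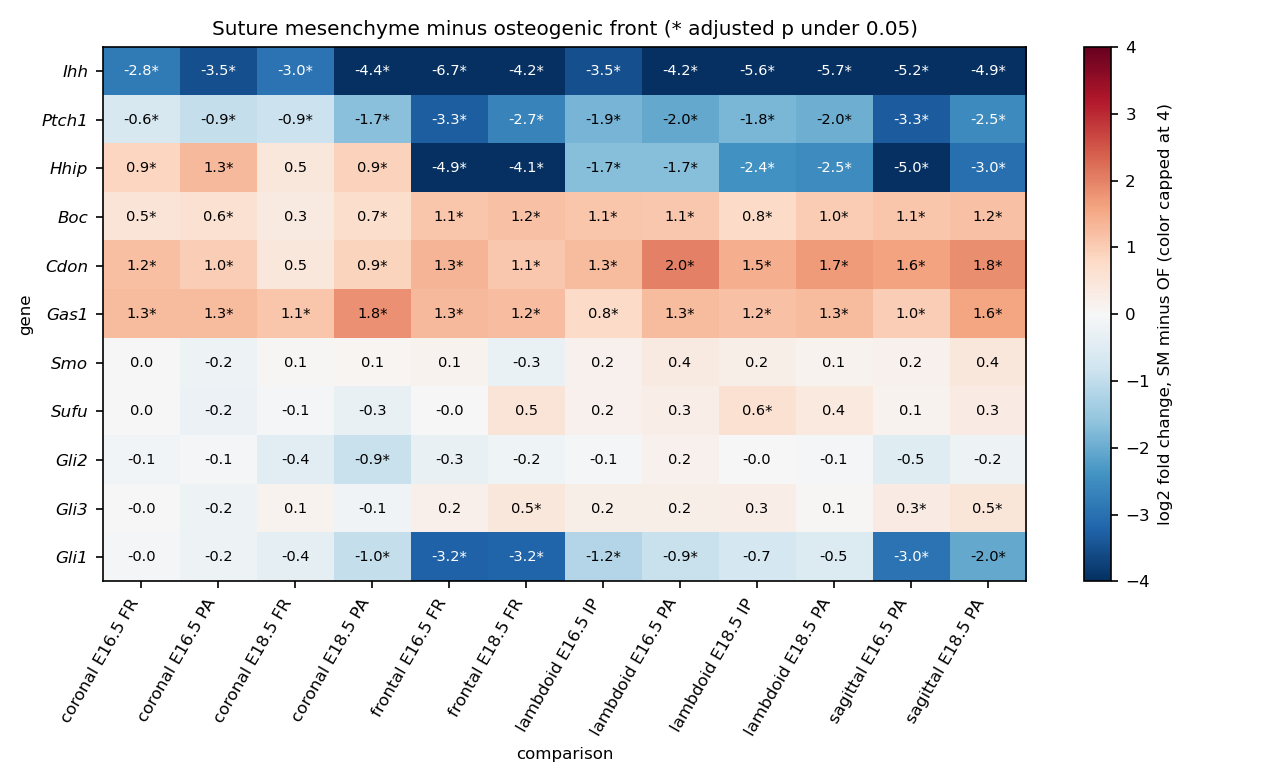
Difference between SM and OF for the 10 members and Gli1 in the 12 comparisons, on a color scale of log2 fold change (SM minus OF, capped at 4 and -4), with the suture, age and front on the horizontal axis. Stars mark an adjusted p under 0.05, and Hhip is positive in the coronal suture (0.45 to 1.30) and negative in the other sutures (-5.00 to -1.70), while the Ihh value of the frontal suture at E16.5 rests on SM libraries with 0 to 2 read pairs and depends on the prior count.

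Ihh, the ligand gene (mm10, chr1:74945315-74951672, minus strand), was expressed in the OFs and was lower in the SM, with 0 to 2.80 CPM in the SM libraries outside the coronal suture. In the sagittal suture at E16.5 the 5 PA libraries had 15.3, 18.6, 12.9, 21 and 15.1 CPM, and the SM libraries of the same embryos had 0.385, 0.761, 0.402, 0.315 and 0.423 CPM. The groups did not overlap, and the log2 fold change (SM minus OF) was -5.18 (SE 0.67, 36.2-fold lower, adjusted p = 8.12e-09). Group means were between 4.55 CPM (frontal suture, FR at E18.5) and 18.9 CPM (lambdoid suture, PA at E16.5) in the OFs and between 0.0578 and 1.84 CPM in the SMs. Ihh was lower in SM in all 12 comparisons and in every embryo, with adjusted p-values of 3.3e-09 to 0.00112 and log2 fold changes of -2.83 to -5.73 outside the frontal suture. In the frontal SM at E16.5 the 5 libraries held only 0 to 2 read pairs of Ihh, against 4.42, 4.43, 6.16, 7.02 and 8.03 CPM in the FR, so that the fitted fold change depends on the prior count and no fold is given.

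Ihh in the coronal SM varied between libraries. At E16.5 the first libraries had 0.454, 5.09, 3.49, 0.107 and 0.0605 CPM in the SM and 10.5, 13.9, 4.96, 8.28 and 3.22 CPM in the FR. The second libraries of embryos 1, 2 and 3 had 7.09, 5.09 and 3.40 CPM in the SM and 12.9 to 25.9 CPM in the FR, so that embryo 1 was low in its first SM library and not in its second. At E18.5 the 3 second SM libraries had 2.02 to 5.15 CPM, below the second FR libraries (15.2 to 17.8 CPM). The log2 fold changes of the first libraries at E16.5 were -2.83 against the FR (SE 0.63, adjusted p = 0.000427) and -3.53 against the PA (SE 0.63, adjusted p = 1.02e-05). The PA libraries ranged widely, with 4.69, 41.2, 9.01, 17.1 and 7.64 CPM.

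Ptch1, the receptor and a transcriptional target (chr13:63508328-63573598, minus strand), was the most abundant member per exon length, with a mean of 36.6 CPM per kilobase over the 100 libraries, against 31.8 for Smo, 28.3 for Cdon and 2.67 for Ihh. It was lower in SM than in each OF in all 12 comparisons, with no overlap of the groups in any of them. In the sagittal suture at E16.5 the SM had 65.8, 78.6, 52.9, 60.5 and 52.9 CPM and the PA 522, 634, 565, 693 and 679.9 CPM. This is a 10.0-fold difference (log2 fold change -3.32, SE 0.19, adjusted p = 6.08e-21). The frontal suture was alike in size, with 47.9, 38.8, 49.9, 45.3 and 29.7 CPM in the SM at E16.5 and 471, 324, 382, 406 and 496 CPM in the FR (9.84-fold, log2 fold change -3.30, SE 0.20, adjusted p = 6.14e-20). Differences in the lambdoid suture were between 3.56- and 4.10-fold.

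The coronal suture had the smallest differences of Ptch1. At E16.5 the coronal SM had 491, 520.2, 516, 653 and 584 CPM, well above the SM of the other sutures, beside 920.1, 858, 694, 924 and 838 CPM in the FR. The difference was 1.54-fold (log2 fold change -0.63, SE 0.18, adjusted p = 0.00585), and with the second coronal libraries in place of the first it was -0.46 on the log2 scale (adjusted p = 0.0688). Against the PA (724, 1045, 1196, 1440.5 and 950.3 CPM) it was 1.92-fold (adjusted p = 3.1e-05). At E18.5 the coronal SM had 277, 252, 246, 296 and 183 CPM, and the differences were 1.81-fold against the FR and 3.20-fold against the PA (adjusted p = 0.00107 and 1.08e-10).

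Hhip (chr8:79965851-80058006, minus strand) encodes a membrane-bound protein that binds hedgehog ligands and so takes them from PTCH1. Its group means ranged 127-fold, and the lowest and the highest were both SMs at E16.5, with 3.93 ± 3.46 CPM (SD, n = 5) in the frontal suture and 498 ± 87 CPM in the coronal suture. Its promoter and that of Ptch1 are shown because both genes are known targets of the GLI factors, whose consensus site is GACCACCCA. The 250 bases before the RefSeq start of each gene (GRCm38.p6, minus strand) are at chr8:80058009-80058258 for Hhip and chr13:63565736-63565985 for Ptch1, where the RefSeq start lies inside the gene span given above, downstream of its outermost 5′ end. They are in lower case with any match to the 6 core bases CCACCC on either strand in capitals:
Hhip: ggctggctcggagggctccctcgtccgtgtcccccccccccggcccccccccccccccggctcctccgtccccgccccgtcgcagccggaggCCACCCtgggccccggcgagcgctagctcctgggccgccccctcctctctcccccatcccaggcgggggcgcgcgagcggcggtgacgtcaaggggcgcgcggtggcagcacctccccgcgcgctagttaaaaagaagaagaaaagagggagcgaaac
Ptch1: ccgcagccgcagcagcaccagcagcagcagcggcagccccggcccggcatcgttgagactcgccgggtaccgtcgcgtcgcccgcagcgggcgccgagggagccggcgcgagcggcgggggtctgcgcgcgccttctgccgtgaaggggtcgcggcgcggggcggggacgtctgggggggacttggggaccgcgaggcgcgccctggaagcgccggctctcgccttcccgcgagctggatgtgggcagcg
The Hhip sequence held 1 core match, which starts 158 bases before the start, and the Ptch1 sequence held none. In windows of 300 bases (250 before and 50 after the start), the full consensus was found in none of the 9 members with a RefSeq promoter and in 83 of 32851 promoters (0.253%). The core, which lies inside the consensus, was found in 5 of the 9 members and in 31.5% of all promoters. These are letters in a window, and no binding was measured.

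In the coronal suture Hhip was higher in SM than in OF. At E16.5 the SM had 444, 399, 524, 628 and 494 CPM, the FR 251, 292, 217, 220.4 and 378 CPM and the PA 191, 183, 218, 231 and 185 CPM. Every SM library was above every OF library. The log2 fold changes (SM minus OF) were 0.87 against the FR (SE 0.33, 1.83-fold, adjusted p = 0.0428) and 1.30 against the PA (SE 0.33, 2.46-fold, adjusted p = 0.00168). The call against the FR is a narrow one. It was lost in DESeq2 (adjusted p = 0.0553), with the second coronal libraries (0.0913) and without embryo number 1, 3 or 4 (0.0922, 0.119 and 0.156).

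At E18.5 the coronal SM had 322, 663, 413, 355 and 490.1 CPM, the FR 247, 352, 379.5, 282 and 361 CPM and the PA 183, 213, 277, 234 and 264 CPM. SM exceeded both fronts in all 5 embryos, but the groups overlapped with the FR and not with the PA. The difference from the PA was 0.91 (log2, SE 0.33, adjusted p = 0.0463) and was not called without embryo number 1, 2, 3 or 5 (0.0744, 0.16, 0.0607 and 0.0654). The difference from the FR was 0.45 (SE 0.33, adjusted p = 0.631). With limma-voom it was 0.45 with an adjusted p of 0.0206. Both tools fit 1 spread per gene over all sutures, and why they differed here was not tested.

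In the other 3 sutures Hhip had the opposite direction. In the frontal SM at E16.5 it had 1.49, 2.11, 6.84, 8.43 and 0.764 CPM, beside 117, 80.0, 83.2, 106 and 98.7 CPM in the FR (30.6-fold lower, log2 fold change -4.93, SE 0.42, adjusted p = 1.97e-14). In the sagittal SM at E16.5 it had 5.58, 9.38, 2.76, 2.71 and 2.18 CPM, beside 109, 129, 128, 149.6 and 137 CPM in the PA (32.0-fold lower, log2 fold change -5.00, SE 0.41, adjusted p = 3.85e-15). All SM libraries were below all OF libraries in these sutures, at both ages. The lambdoid SM was intermediate, with 31.4, 42.3, 48.9, 54.9 and 23.8 CPM at E16.5 and 5.63 to 38.1 CPM (median 16.8) at E18.5. Its differences from the IP and PA were 3.25- to 5.72-fold (adjusted p = 1.28e-07 to 0.000192). Hhip in the OFs also stood higher in the coronal suture (group means of 202 to 324 CPM) than in the others (65.7 to 131 CPM), in libraries that were made separately.

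**Figure D2:**
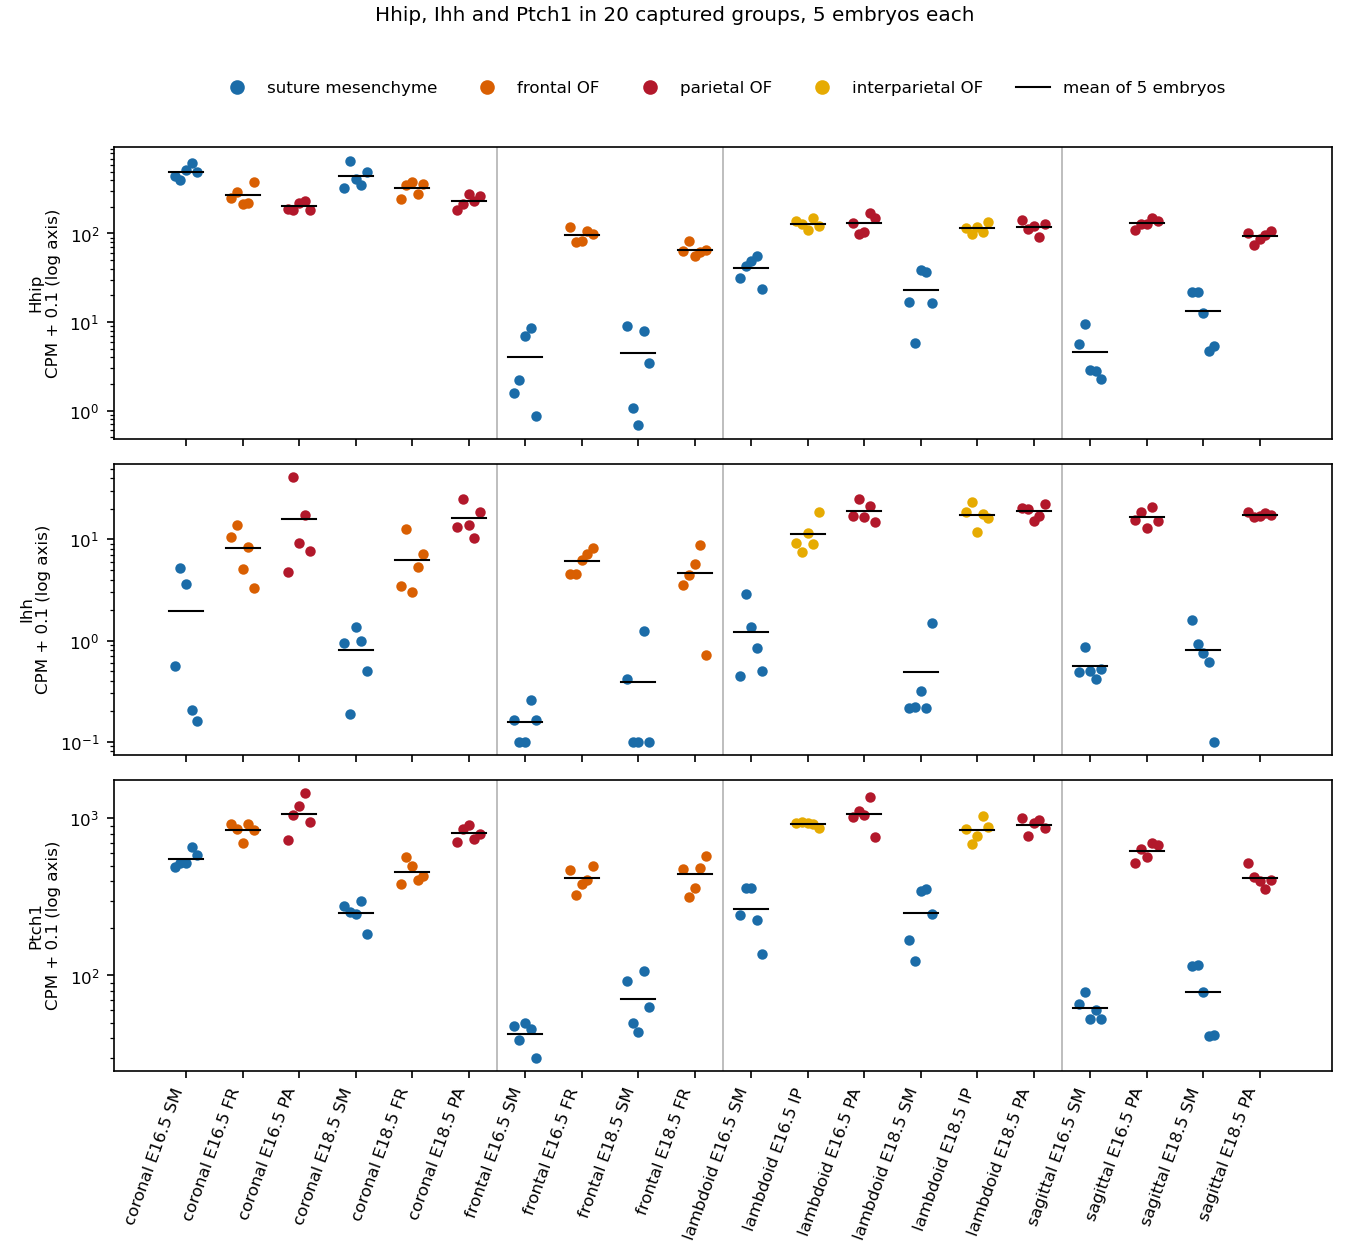
CPM + 0.1 of Hhip, Ihh and Ptch1 on log axes in the 20 captured groups, with a point per embryo, a line at the mean of 5 embryos and colors for SM and the frontal, parietal and interparietal OF. The coronal SM points of Hhip, 322 to 663 CPM, lie above all SM points of the other sutures, and Ptch1 in SM lies below the OFs of the same suture and age.

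The difference between the coronal suture and the other sutures was tested as the mean of the 4 coronal SM-minus-OF differences less the mean of the other 8. This contrast uses differences within embryos, so a level shared by the libraries of a suture cancels. Of the 10 members 7 passed, beside 19.8% of all genes. Hhip (4.06, SE 0.24, adjusted p = 1.27e-19), Ihh (1.58, SE 0.47, adjusted p = 0.0119) and Ptch1 (1.42, SE 0.13, adjusted p = 3.64e-13) had less negative or more positive differences in the coronal suture, in log2 units. The value of Ihh includes the frontal difference at E16.5 and so depends in part on the prior count. Cdon (-0.66, SE 0.12, adjusted p = 3.28e-05), Boc (-0.52, SE 0.13, adjusted p = 0.00213), Gli3 (-0.33, SE 0.09, adjusted p = 0.00455) and Sufu (-0.45, SE 0.16, adjusted p = 0.0369) had the opposite sign. Gas1 (0.18, adjusted p = 0.451), Gli2 (-0.22, adjusted p = 0.257) and Smo (-0.20, adjusted p = 0.323) did not pass. Under 11 alternative settings the value of Hhip stayed between 3.89 and 4.19 and that of Ptch1 between 1.34 and 1.52. Ihh fell to 0.85 without embryo number 3 (adjusted p = 0.283) and Gli3 to -0.24 without number 5 (0.0537). Sufu missed the threshold with the second libraries (0.102), without a filter (0.0555) and without number 1, 2 or 4 (0.148, 0.145 and 0.0775). Beside these values, 5 of 9 osteoblast markers also passed with a positive value in this contrast (median 1.84 over the 9 genes, against 0.09 over all genes), and the part of osteoblast RNA in the coronal SM in the values of Ihh and Ptch1 was not tested.

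The 3 co-receptor genes Boc (chr16:44485049-44558897, minus strand), Cdon (chr9:35421128-35507652, plus strand) and Gas1 (chr13:60174405-60177365, minus strand) were higher in SM. BOC and CDON are related membrane proteins of the immunoglobulin superfamily, GAS1 is linked to the membrane by a lipid anchor, and all bind hedgehog ligand and present it to PTCH1. Gas1 was called in 12 of 12 comparisons, Boc in 11 and Cdon in 11, all in the same direction. The exception for Boc and Cdon was the coronal FR at E18.5.

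Cdon differed by 1.38- to 4.05-fold. In the lambdoid suture at E16.5 the SM had 371, 399, 373, 453 and 347 CPM and the PA 90.5, 72.9, 85.4, 117 and 120.2 CPM, with no overlap (4.05-fold, log2 fold change 2.02, SE 0.17, adjusted p = 5.73e-15). The sagittal suture at E18.5 had 329.8, 329, 393, 352 and 312 CPM in the SM and 108, 84.1, 93.7, 104 and 88.4 CPM in the PA (3.59-fold, log2 fold change 1.84, SE 0.17, adjusted p = 6.2e-14). Coronal differences were smaller. At E18.5 the coronal SM had 219, 429.9, 211, 187 and 184 CPM, of which embryo 2 stood apart, and the FR had 154, 187, 189.7, 157 and 175 CPM. Although SM was higher in 5 of 5 embryos, the log2 fold change of 0.47 (SE 0.16) had an adjusted p of 0.105, and it passed in limma-voom (0.0284), without a filter (0.0443) and without embryo number 5 (0.0421).

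Boc in the sagittal suture at E16.5 had 77.5, 65.2, 80.3, 96.2 and 93.2 CPM in the SM and 39.3, 28.7, 41.9, 41.1 and 39.1 CPM in the PA. The groups did not overlap, and the log2 fold change was 1.12 (SE 0.18, 2.17-fold, adjusted p = 1.4e-06). Outside the coronal suture the differences of Boc were 1.72- to 2.24-fold. In the coronal suture they were 1.27- to 1.63-fold and the groups overlapped in each comparison. The coronal calls at E16.5 (log2 fold change 0.52 against the FR and 0.60 against the PA, adjusted p = 0.0249 and 0.00648) were lost against the FR without embryo number 2, 3, 4 or 5 (0.0773, 0.0746, 0.29 and 0.0586) and against the PA without number 4 (0.0825). The call against the PA at E18.5 (0.70, adjusted p = 0.00242) fell to 0.32 with the second coronal libraries (0.221).

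Gas1 in the coronal suture at E18.5 had 71.9, 99.1, 52.8, 82.1 and 54.7 CPM in the SM, 34.0, 28.5, 32.5, 47.9 and 24.3 CPM in the FR and 20.4, 19, 14.6, 22.4 and 23.5 CPM in the PA. All SM libraries were above all OF libraries, by 2.15-fold against the FR (log2 fold change 1.10, SE 0.21, adjusted p = 0.000199) and 3.55-fold against the PA (1.83, SE 0.21, adjusted p = 5.82e-10). Its other differences were 1.70- to 3.00-fold. The smallest, against the lambdoid IP at E16.5 (log2 fold change 0.77, adjusted p = 0.00716), was 0.68 without embryo number 5 (0.0693). The start of Gas1 overlaps Gm48488 on the opposite strand, and since the reads were counted without strand its counts are uncertain to that extent. The same holds for genes with counts of their own that overlap Cdon (Gm25630 and Gm24188), Gli2 (Mir6346), Gli3 (Gm48343 and Gm6556), Ptch1 (A930032L01Rik) and Boc (Mir3081), on either strand. Outside the coronal suture, some marker lists of other cell types also reached higher levels in SM. The pericyte and osteoclast lists had nearly the same range in SM and OF there. In the frontal, lambdoid and sagittal sutures the 8 chondrocyte markers together had group means of 285 to 415 CPM in the SM and 70.9 to 138 CPM in the OFs, the 4 ectocranial mesenchyme markers 1067 to 2464 and 568 to 1408 CPM, and the 4 mast cell markers 60.9 to 307 and 18.4 to 120 CPM. In the coronal suture the chondrocyte, ectocranial and mast cell lists had 66.6 to 230 (SM) and 34.5 to 137 CPM (OF), 298 to 427 and 138 to 550 CPM, and 0.871 to 3.89 and 4.51 to 17.4 CPM. The mast cell list was thus lower in the coronal SM, and the ranges of the chondrocyte and ectocranial lists overlapped. Their part in the co-receptor values was not tested.

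**Figure D3:**
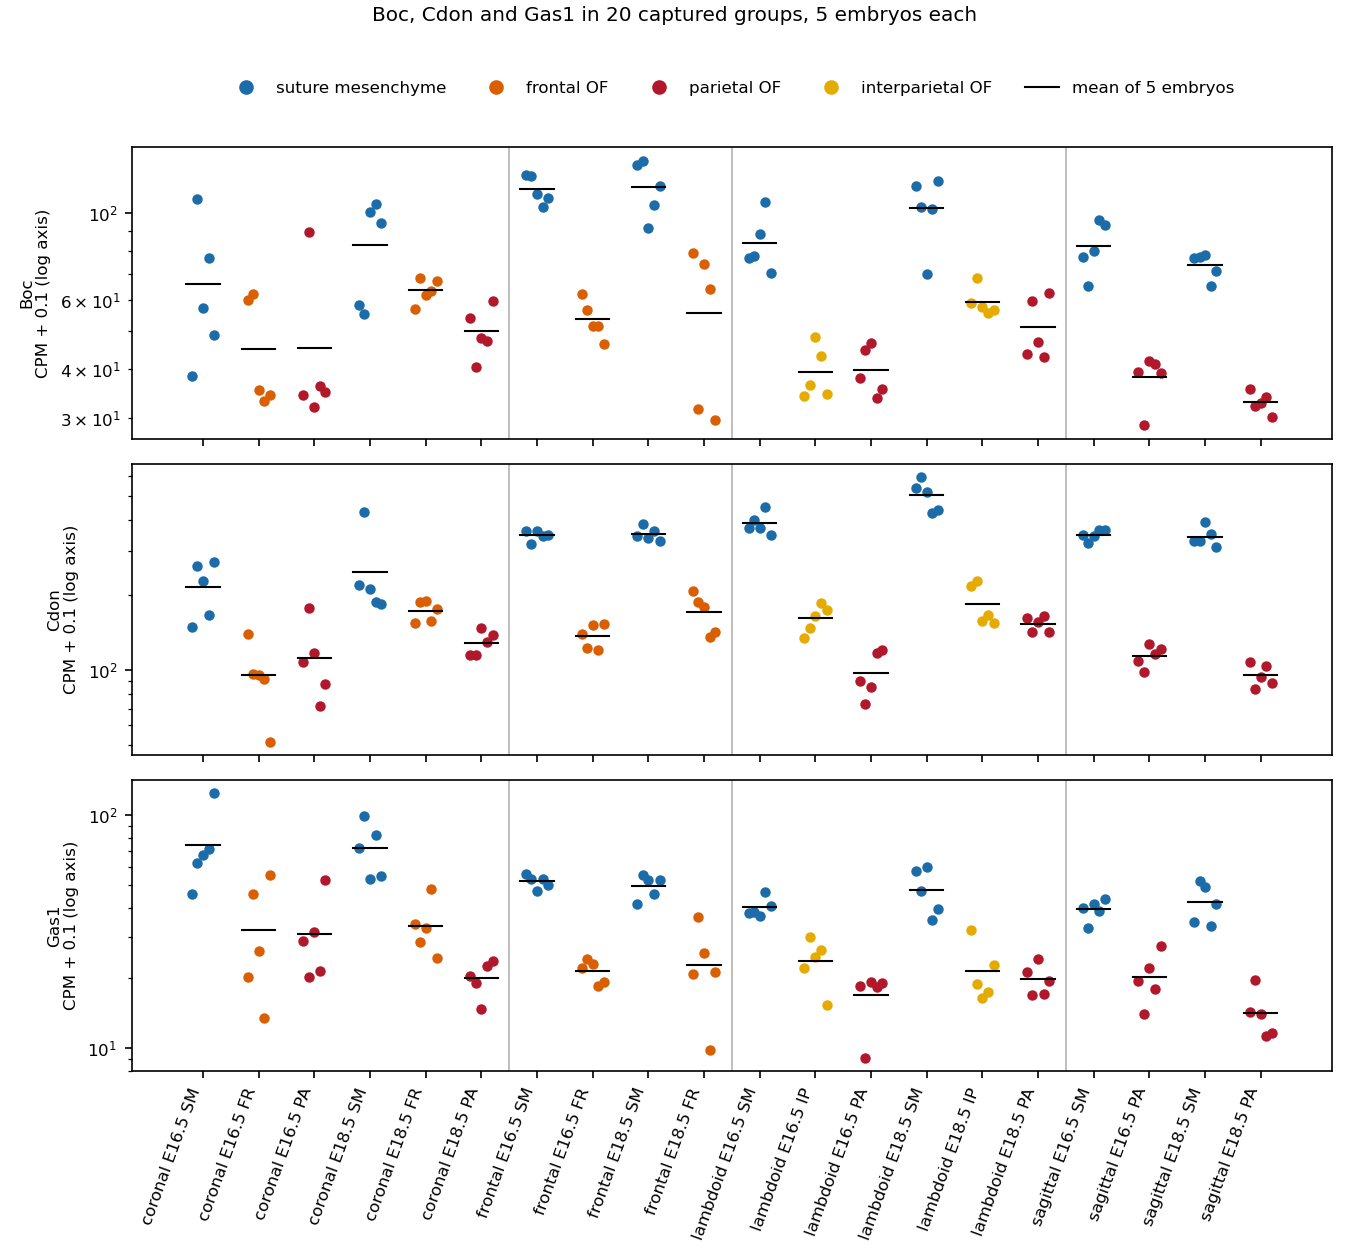
CPM + 0.1 of Boc, Cdon and Gas1 on log axes in the 20 captured groups, with a point per embryo, a line at the mean of 5 embryos and colors for SM and OF. The SM means lie above the OF means of the same suture and age for all 3 genes, and the coronal groups overlap most for Boc.

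Smo (chr6:29735503-29761365, plus strand), the transmembrane transducer that PTCH1 inhibits, passed in none of the 12 comparisons, with log2 fold changes of -0.27 to 0.44, but 2 of them passed under alternative settings. The difference from the lambdoid PA at E16.5 passed in DESeq2 (0.50, adjusted p = 0.0287), with median-ratio size factors (0.0367), without a filter (0.0438) and without number 5 (0.0248). The coronal SM at E18.5 had 184, 204, 154, 238 and 171 CPM and the coronal PA 168, 205, 168, 173 and 192 CPM, so that the groups overlapped entirely. In the sagittal suture at E18.5 SM was higher in 5 of 5 embryos (151, 155, 132, 139 and 127 CPM beside 112, 93.3, 114, 98.9 and 99.6 CPM) with a log2 fold change of 0.44 (SE 0.18, adjusted p = 0.0665), which passed in DESeq2 (0.0270), with median-ratio size factors (0.0342) and without a filter (0.0286). Gm13717 lies within Smo on the same strand, and how reads there were assigned makes its counts uncertain to that extent.

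Sufu (chr19:46396896-46488804, plus strand), the cytoplasmic inhibitor that holds GLI proteins, was called once, in the lambdoid suture at E18.5 against the IP. The SM had 49.5, 64.4, 49.6, 43.3 and 50.1 CPM and the IP 27.7, 47.5, 32.4, 25.6 and 37.9 CPM, which overlap in embryo 2 of the IP (log2 fold change 0.60, SE 0.22, adjusted p = 0.0415). This call was lost in limma-voom (0.0807), without a filter (0.0555) and without number 1, 2, 3 or 4 (0.0813, 0.0755, 0.0502 and 0.123). Its other log2 fold changes were -0.29 to 0.53, of which the frontal one at E18.5 was 0.81 without number 3 (0.0156).

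Gli2 (chr1:118834132-119053619, minus strand), the main activator among the GLI factors, was lower in the coronal SM than in the PA at E18.5, with 56.9, 50, 55.9, 76.2 and 50.2 CPM in the SM and 96.0, 141, 89.3, 115 and 101 CPM in the PA. The groups did not overlap (1.85-fold, log2 fold change -0.89, SE 0.18, adjusted p = 0.000202). It was not called in the other 11 comparisons, where the log2 fold changes were -0.49 to 0.17. The lowest of these, in the sagittal suture at E16.5 (adjusted p = 0.0517, with no overlap of the groups), passed in limma-voom (0.0496), without a filter (0.0358), with the second coronal libraries (0.0194) and without number 2 (0.0416). Gli3 (chr13:15463235-15730026, plus strand), which acts mostly as a repressor, was higher in SM in 3 comparisons, all outside the coronal suture. In the sagittal suture it had 133, 115, 107, 119 and 117 CPM in the SM and 90.5, 92.2, 87.7, 98.1 and 95.9 CPM in the PA at E16.5 (log2 fold change 0.34, SE 0.12, adjusted p = 0.0381), and it was 0.48 at E18.5 (SE 0.12, adjusted p = 0.0016). In the frontal suture at E18.5 it was 0.46 (SE 0.12, adjusted p = 0.00739). The sagittal call at E16.5 was lost without embryo number 1, 2, 3 or 4 (0.133, 0.0862, 0.0774 and 0.0573) and without a filter (0.241). Gli3 was also called lower in the coronal SM than in the PA at E16.5 with the second libraries (-0.36, adjusted p = 0.0148), and higher in 3 lambdoid comparisons in DESeq2 (0.35 to 0.38, adjusted p = 0.0103 to 0.0344) and with median-ratio size factors (0.0149 to 0.0474), 2 of which also passed without number 5 (0.0386 and 0.0490). The frontal call was lost without number 1 or 2 (0.0629 and 0.076), in limma-voom (0.0778) and without a filter (0.0729).

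Among other genes of the pathway, 26 of 32 were measured well enough to be tested. They had 56 calls for higher and 37 for lower levels in SM out of 312 tests, beside 19% of the tests of all genes in either direction. Of 5 target genes tested, 3 were lower in SM in at least 6 of the 12 comparisons. They were Ccnd1 (12 comparisons, a cyclin of the G1 phase), Mycn (8) and Gli1 (7), the factor whose transcription is the standard readout of the signal. Of the 5 genes of ligand making and release, Scube2 (11 comparisons) and Scube3 (10), which help to carry the lipid-modified ligand away from the cell that makes it, were higher in SM. Disp1, the transporter that releases the ligand, was lower in SM in 4 comparisons. Of 12 genes of the cilium and of transduction, Kif3a (8) and Evc (7), which act in the primary cilium, were higher in SM. None of the 5 tested genes of reception reached 6 comparisons, and Gpc3, a heparan sulfate proteoglycan, was higher in SM in 5.

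Gli1 was lower in SM in both frontal, both sagittal and both E16.5 lambdoid comparisons and in the coronal suture against the PA at E18.5. In the frontal suture at E16.5 it had 8.16, 6.76, 8.19, 6.82 and 3.37 CPM in the SM and 69.1, 55.7, 58.5, 59.5 and 58.3 CPM in the FR (9.31-fold lower, log2 fold change -3.22, SE 0.30, adjusted p = 7.53e-13). In the coronal suture at E16.5 the SM had 22.2, 92.1, 38.8, 47.9 and 45.7 CPM and the FR 60.4, 71.3, 39.4, 61.6 and 22.1 CPM, which overlap (log2 fold change -0.03, SE 0.27, adjusted p = 0.951). The contrast of the coronal suture with the others was 1.45 (SE 0.20, adjusted p = 6.3e-08). In the same contrast Mycn (1.39), Ccnd1 (0.79), Pthlh (2.76, a paracrine regulator of chondrocytes), Prkacb (0.46) and Csnk1a1 (0.32), which encode kinases that phosphorylate GLI proteins, had less negative or more positive SM-minus-OF differences in the coronal suture. Disp1 (-1.39), Scube2 (-0.96), Scube3 (-0.76) and Gpc3 (-0.46) had the opposite sign (adjusted p = 7.15e-12 to 0.0136 for these 9 genes).

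Proliferation markers moved with these values. The sum of 6 of them had group means of 542 to 1155 CPM in the SM and 1111 to 2025 CPM in the OFs outside the coronal suture. In the coronal SM it was 1482 to 2724 CPM, near the coronal OFs (1656 to 2079 CPM). Their part in the values of Ccnd1 and Mycn was not tested.

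Between E16.5 and E18.5, which compares different embryos, 14 of 100 tests of members passed, beside 8.57% of the tests of all genes. Of these calls 10 were in the coronal suture, with 5 in the FR (24.4% of all genes passed there), 2 in the PA (20.6%) and 3 in the SM (27.1%). There was 1 call in the frontal FR (4.34%), 1 in the frontal SM (2.33%), 1 in the lambdoid PA (0.986%) and 1 in the sagittal SM (1.12%). No member passed in the lambdoid IP (0.288%), the lambdoid SM (2.96%) or the sagittal PA (1.6%). The coronal share of all genes was itself several times that of the other sutures, and the members' counts there were read against it.

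Ptch1 fell with age in the coronal SM (from 553 ± 65.5 to 251 ± 42.8 CPM, SD, n = 5) by 1.14 on the log2 scale (SE 0.22, adjusted p = 2.96e-05). In the coronal FR it fell by 0.89 (SE 0.21, adjusted p = 0.00114), which was 0.72 with the second libraries (0.0558). In the frontal SM it rose from 42.3 ± 8.21 to 71.3 ± 27.3 CPM (0.75, SE 0.22, adjusted p = 0.0385), a call lost in limma-voom (0.347), with the second coronal libraries (0.135) and when any 1 of the 5 embryo numbers was left out (adjusted p = 0.0501 to 0.39). Gli3 fell in all 3 coronal regions by 0.54 (FR), 0.43 (PA) and 0.39 (SM) and in the frontal FR by 0.51 on the log2 scale (adjusted p = 0.000631, 0.00821, 0.012 and 0.00752). With the second coronal libraries the coronal values were -0.13, -0.30 and 0.06 (adjusted p = 0.545, 0.128 and 0.803), so that the sign in the SM turned. The SM value was also -0.30 without number 1 (0.147), -0.20 without number 3 (0.309) and -0.37 without a filter (0.0553). The PA value was -0.36 without number 2 (0.0673), and the frontal value was not called without number 1, 2 or 3 (0.0777, 0.0671 and 0.0514).

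Gli2 fell in the coronal SM by 0.84 (SE 0.19, adjusted p = 0.00033) and in the FR by 0.52 (SE 0.19, adjusted p = 0.0318). The FR value rested on several libraries and was -0.20 with the second libraries (0.525), -0.42 in limma-voom (0.0618), -0.48 without a filter (0.0778) and -0.38 to -0.50 without number 1, 3 or 4 (0.225, 0.17 and 0.0884). Smo fell in the coronal FR by 0.56 (adjusted p = 0.0291) and in the PA by 0.75 (adjusted p = 0.00401). Neither passed with the second libraries (-0.20, 0.692, and -0.64, 0.117), and the FR value was -0.50 without number 1 (0.119), -0.32 without number 3 (0.322) and -0.51 without a filter (0.0524). Cdon rose in the coronal FR from 95 ± 31.3 to 173 ± 16.7 CPM (0.86, SE 0.17, adjusted p = 6.49e-05) and in the lambdoid PA from 97.2 ± 20.6 to 153 ± 11.0 CPM (0.66, SE 0.17, adjusted p = 0.0286). The lambdoid call was lost in limma-voom (0.138) and without number 1, 2, 3 or 4 (0.13, 0.0683, 0.191 and 0.0701). Hhip rose in the sagittal SM, from 5.58, 9.38, 2.76, 2.71 and 2.18 CPM to 22.0, 21.9, 12.4, 4.55 and 5.27 CPM, where embryos 4 and 5 stayed within the earlier range (1.54, SE 0.37, adjusted p = 0.011). It was not called in limma-voom (0.42) or without number 1 or 3 (0.192 and 0.113).

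Some age differences passed only under alternative settings. Boc was higher at E18.5 in the coronal FR by 0.50 (log2, SE 0.21, adjusted p = 0.0671), which passed in limma-voom (0.0241), with the second libraries (0.0242) and without number 1 or 2 (0.0456 and 0.0118). In the coronal PA its difference of 0.14 (adjusted p = 0.678) was 0.83 with the second libraries (0.0014) and 0.61 without number 2 (0.0171), and in the coronal SM it was 0.33 (0.244), and 0.69 without number 2 (0.00297). Gas1 in the coronal PA (-0.62, adjusted p = 0.0592) passed in DESeq2 (0.0322), with median-ratio size factors (0.0416) and without number 2 or 4 (0.0436 and 0.0219). Smo in the coronal SM (-0.48, adjusted p = 0.0606) passed in DESeq2 (0.0425), in limma-voom (0.0193), with size factors (0.0489) and without number 4 (0.0243), and Smo in the frontal FR (0.53, 0.116) passed in DESeq2 (0.0350). In 1 setting each, Ptch1 in the coronal PA (limma-voom, 0.0338), Cdon in the coronal PA (without number 2, 0.0362), Sufu in the coronal SM (without number 4, 0.0495) and Ihh in the lambdoid SM (without number 5, 0.0470) passed too.

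**Figure D4:**
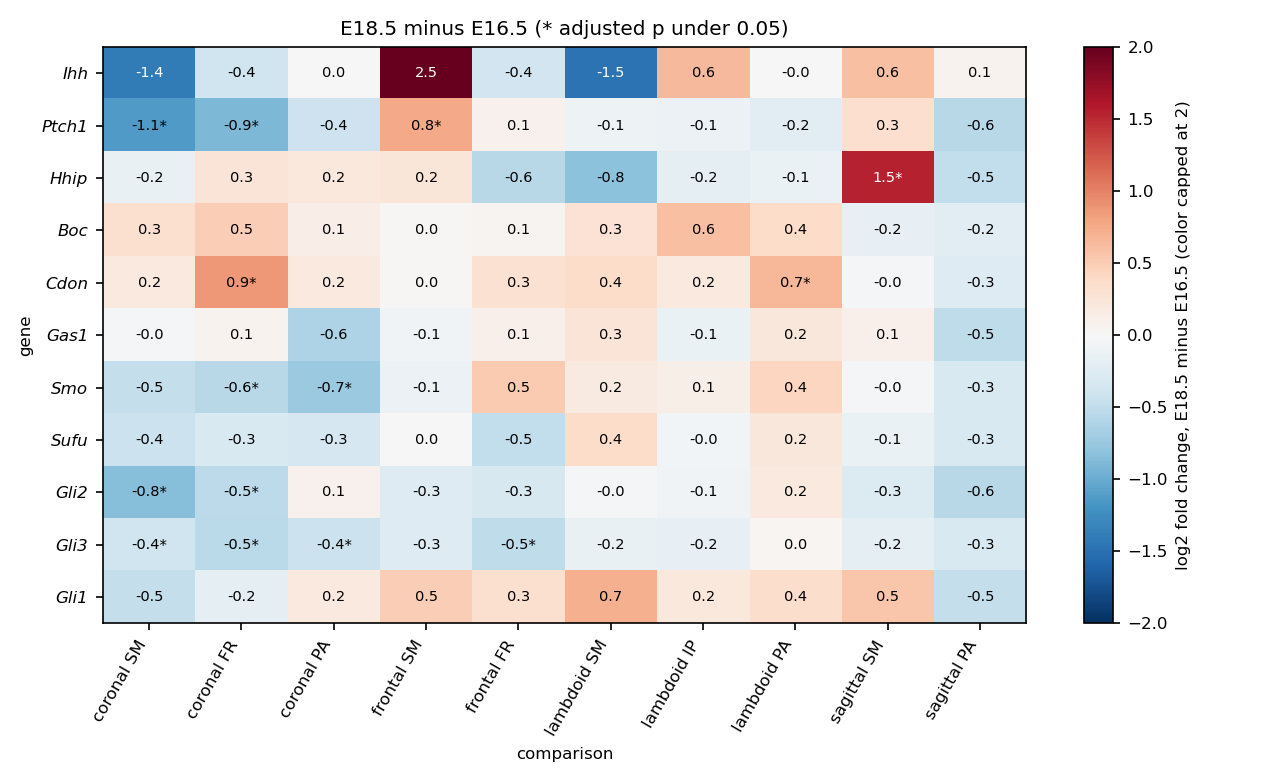
Difference between the ages for the 10 members and Gli1 in the 10 region types, on a color scale of log2 fold change (E18.5 minus E16.5, capped at 2 and -2), with stars at an adjusted p under 0.05. The 3 coronal columns hold 10 of the 14 member calls, and 20.6 to 27.1% of all genes passed there, beside 0.288 to 4.34% in the other columns. The value of 2.48 for Ihh in the frontal SM rests on libraries with 0 to 14 read pairs.

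Whether the difference between SM and OF itself changed with age was tested for each of the 6 fronts. Of 60 tests of members 2 passed (3.33%, beside 1.88% of all genes). One was Cdon against the coronal FR (-0.72, SE 0.23, adjusted p = 0.0468, background 5.91%) and the other Gli2 against the coronal PA (-0.83, SE 0.26, adjusted p = 0.0480, background 4.96%). The value of Cdon was -0.33 without embryo number 5 (0.44) and was not called without number 3 or 4 (0.178 and 0.0963), with the second libraries (0.151) or without the block (0.066). The value of Gli2 was -0.39 without number 2 (0.378) and was not called without number 1, 3 or 4 (0.0764, 0.0897 and 0.0628), with the second libraries (0.0668) or with median-ratio size factors (0.0508). No member passed in the frontal suture (0.0152% of all genes), the lambdoid IP (0.121%) and PA (0.167%) or the sagittal suture (0.116%). In the sagittal suture Hhip had a change of 1.97 (SE 0.52, adjusted p = 0.132), which passed in DESeq2 (0.0354) and without a filter (3.3e-14). Ptch1 against the coronal PA had a change of -0.74 (SE 0.25, adjusted p = 0.0698), which passed in DESeq2 (0.038), in limma-voom (0.00504) and without a filter (0.000674). Without a filter Hhip against the lambdoid PA (-0.85, 0.0263) and Ptch1 in the sagittal suture (0.77, 0.00153) passed too.

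Both fronts of the coronal and the lambdoid suture were compared within embryos, and 3 of 40 tests of members passed (7.5%, beside 4.06% of all genes). In the coronal suture at E18.5 (6.16% of all genes) Ptch1 was lower in the FR than in the PA (383, 567, 495, 408 and 431 CPM beside 712, 859, 912, 743 and 790.1 CPM, 1.77-fold, adjusted p = 0.00149). Gas1 was higher there in the FR (1.66-fold, adjusted p = 0.0197), a call lost without the block (0.0555) and without number 1, 3 or 4 (0.0858, 0.141 and 0.0848). In the lambdoid suture at E16.5 (0.981%) Cdon was higher in the IP than in the PA (134, 147, 165, 186 and 174 CPM beside 90.5, 72.9, 85.4, 117 and 120.2 CPM, 1.67-fold, adjusted p = 0.0104), and it was not called in limma-voom (0.0551) or without number 2, 3 or 4 (0.0697, 0.167 and 0.0683). No member passed in the coronal suture at E16.5 (9.09%) or the lambdoid suture at E18.5 (0.0152%). Ihh was lower in the coronal FR than in the PA in 5 of 5 embryos at E18.5 (-1.42, SE 0.54, adjusted p = 0.118), which passed in limma-voom (0.000505) and without a filter (0.0169). At E18.5 Cdon was higher in the coronal FR by 0.41 (SE 0.16, adjusted p = 0.131), which passed in DESeq2 (0.0437), in limma-voom (0.0474), without a filter (0.0349) and with the second libraries (0.57, 0.0158). Hhip there was 0.46 (SE 0.33, adjusted p = 0.517) and passed in limma-voom (0.0176) and without a filter (0.0272). In limma-voom alone Gli2 at E18.5 (-0.48, 0.0472) and, at E16.5, Ihh (-1.01, 0.0339) and Ptch1 (-0.32, 0.0484) were called lower in the coronal FR.

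The complete sutures bear on levels between sutures, since each of 4 library batches held all 4 sutures at E18.5. They carry 1 replicate number per suture and batch and are given as values with no test. How much of each tissue they held is not given, and the complete coronal libraries had less Hhip than any captured coronal library at E18.5. Whether the 4 libraries of a suture come from separate RNA samples is not given, so the batches may repeat a single sample and are not independent evidence of an order. Hhip was highest in the coronal suture in 4 of 4 batches, with 85.8, 98.1, 112 and 76.2 CPM, beside 19.3 to 33.7 CPM in the other sutures. Ptch1 was also highest there in each batch (195 to 303 CPM, beside 99.98 to 179 CPM), and so was Gli1 (41.9 to 51.7 CPM, beside 21.0 to 36.2 CPM). Ihh was highest in the coronal suture in 3 of 4 batches (2.61 to 6.17 CPM). The co-receptors had the reverse order at the coronal end. Boc, Cdon and Gas1 were lowest in the coronal suture in 4 of 4 batches (46.3 to 70.9, 96.9 to 144 and 25.5 to 33.5 CPM). Boc and Gas1 were highest in the frontal suture (87.0 to 122 and 77.9 to 99.2 CPM) and Cdon in the sagittal suture (264 to 329.7 CPM) in each batch. Among the captured groups, however, the highest mean of Gas1 was in the coronal SM at E16.5 (73.9 CPM). Smo was lowest in the coronal suture in each batch (84.2 to 106 CPM, beside 109 to 138 CPM). The captured groups did not have this order, with the highest mean of Smo in the coronal PA at E16.5 (304 CPM) and the lowest in the sagittal PA at E18.5 (104 CPM).

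The second coronal libraries, whose making the labels do not give, were read against the first library of the same embryo and region in 18 pairs. Levels moved between them. The second library was lower in 18 of 18 pairs for Hhip, Ptch1, Smo and Cdon, with median log2 differences of -0.45, -0.64, -0.87 and -0.41. It was higher in 16 of 18 pairs for Ihh and in 17 of 18 for Gli1 (medians 1.24 and 0.77). As an alternative setting, second libraries replaced the first where they existed, and the remaining coronal libraries were first ones. At E18.5 embryo 4 had a second PA and SM library but no second FR, and embryo 5 had only a second FR. Comparisons with the FR within these embryos thus set a second library against a first. Of the 22 coronal calls for SM against OF, 19 remained with this mix. The 3 lost were Ptch1 and Hhip against the FR at E16.5 and Boc against the PA at E18.5. The other 52 calls rest on libraries that were not exchanged.

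Single cells of the coronal suture were counted by unique molecular identifiers (UMIs). The 2 libraries of each age had pooled sutures of several embryos, so that cells are not replicates and no test was made. After filtering the libraries of E16.5 held 466 and 337 cells, and those of E18.5 held 2412 and 1577. Median UMIs per cell were 2501, 2121, 18476 and 7131. For the later age, the deposited matrices are named with an E16 code, but the sample labels were followed here. The capture chemistry also differed between the ages, which are therefore not compared. Barcodes shared by the libraries of an age numbered 1 and 5. At E18.5 the second library was the shallower, made up nearly all of 3 clusters of suture cells, and had haemoglobin genes among the leading genes of 2 of these, while the first library made up most of several others. Values are therefore given per library. Clusters were made without the hedgehog genes and are named after marker lists, or by leading genes where no list applied. Values are CPM of UMIs over the cells of a cluster, with exact 95% Poisson intervals, which cover counting error only.

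At E18.5 Ihh was found chiefly in the osteoblast-like cells. A cluster led by Dmp1, Bglap and Phex had 36.8 (30 to 44.7, 112 cells) in library 1 and 47.3 (29.3 to 72.3, 39 cells) in library 2. Another, led by Smpd3 and Ibsp and found in library 2, had 32.0 (25.5 to 39.6, 319 cells). A cluster of library 2 with Tnc, Mmp13 and haemoglobin genes among its leading genes had 16 (11.8 to 21.2). All other clusters were at 0 to 5.58, and the macrophage-like cells, which serve as background, were at 3.17 and 0. At E16.5 the matrices held 2 UMIs of Ihh in all clusters described, both in osteoblast-like cells.

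Hhip was highest elsewhere. At E18.5 a cluster led by Tppp3, Dpt, Ptx4 and Tnn, which no marker list named, had 88.7 (81.9 to 96.0, 346 cells) and 156 (134 to 182, 79 cells) CPM in libraries 1 and 2. The proliferating-like cells had 63.0 (55.7 to 70.9) and 115 (88.1 to 147). The osteoblast-like cluster led by Dmp1 had only 8.74 (5.6 to 13) and 18 (7.78 to 35.5), and the macrophage-like cells 2.02 and 0. At E16.5 the highest level was in an unnamed cluster led by Tnn, Npnt and Runx3, with 99.9 (58.2 to 160, 55 cells) and 161 (103 to 240, 59 cells). Its leading 10 genes also held Alpl, Mmp13 and Spp1. Alpl and Spp1 are on the osteoblast list, which was too few markers for a name, so this cluster may hold osteogenic cells. The macrophage-like and osteoclast-like cells there held 0 UMIs, which allows up to 20.3 CPM in the macrophage-like cells of library 1 (3 UMIs of the total).

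Ptch1 at E18.5 was 19.3 to 41.6 in the clusters of suture cells of library 1 that held no immune genes among their leaders, beside 9.79 in the macrophage-like cells. In library 2 it reached 79.2 (68.8 to 90.7) in the osteoblast-like cluster led by Smpd3. At E16.5 the cluster led by Tnn, which also had the most Hhip, had 118 (71.8 to 181) and 188 (125 to 272), beside 39.8 and 66.7 over all cells of the libraries.

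Cdon was highest at E18.5 in a cluster led by Atp1b1, Itih5 and Bace2, with 79.9 (72.2 to 88.2, 259 cells) and 89.8 (61.0 to 127, 50 cells), where Hhip was 11.8 (8.94 to 15.2) and 17.4 (6.38 to 37.8). This cluster had 3 dura mater markers among its leading 20 genes but only 1 among the leading 10, and so was left unnamed, whereas with 30 principal components a cluster led by Nppc, Atp1b1 and Col14a1 was named dura mater-like. The ectocranial mesenchyme-like cells, led by Igfbp3 and Sfrp2, followed with 51.9 and 76.0. The osteoblast-like cluster led by Dmp1 had 8.37 and 4.51, and for the one led by Smpd3 no value of Cdon or Gas1 is given here. Boc was highest in the cluster led by Gpha2, Scara5 and Nppc (45.6 and 81.9) and in that led by Atp1b1 (45.2 and 75.3). Gas1 was the most widely found, with 241 (228 to 255) and 330 (272 to 397) in the cluster led by Atp1b1, 319 (267 to 378) and 184 (137 to 243) in the pericyte-like cells, and 39.7 (32.6 to 47.9) and 33.8 (18.9 to 55.7) in the osteoblast-like cells led by Dmp1. At E16.5 Cdon was 93.1 (60.3 to 137) and 87.9 (28.5 to 205) in the cluster led by C1qtnf3 and Igfbp3, beside 5.88 and 13.4 in the cluster led by Tnn that had the most Hhip.

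**Figure D5:**
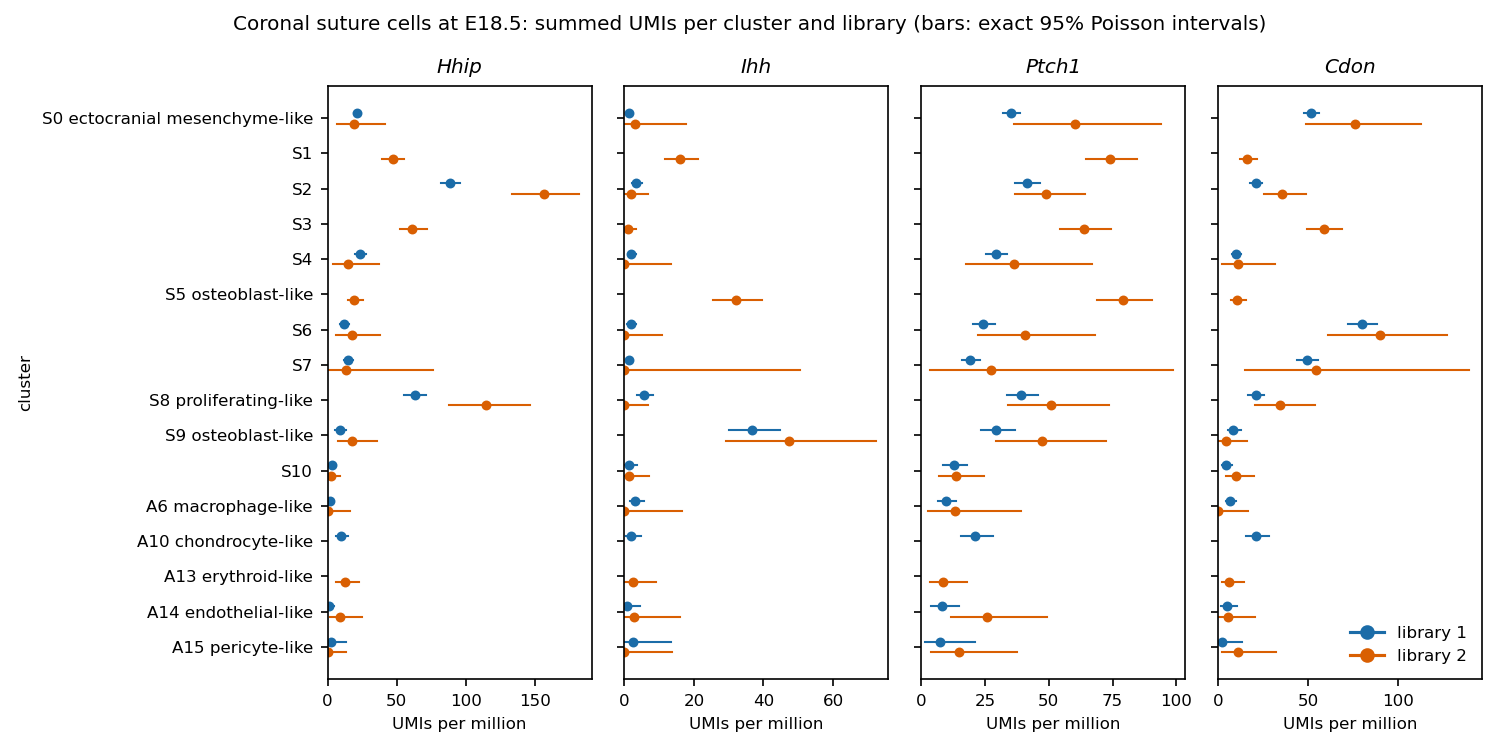
Summed UMI counts, as CPM, of Hhip, Ihh, Ptch1 and Cdon in clusters of coronal suture cells at E18.5, with a point per library and bars for exact 95% Poisson intervals of the summed counts. Ihh is highest in the osteoblast-like clusters (32.0 to 47.3), and Hhip in the cluster led by Tppp3 (88.7 and 156), which is labelled S2.

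Genes whose levels followed the members over the 20 groups are given as a description (Pearson's r of mean log2 CPM over group means that share libraries, embryos and depth, with no p). The closest to Hhip were Arl6 (0.93), Lepr, Aldh9a1, Baz1a and Fgfr2 (0.92 each). The closest to Ihh were Unc5b, Ifitm5 and Slc13a5 (0.98 each), Smpd3 and Cdkn1a (0.97 each), of which Ifitm5 is a gene of bone-forming osteoblasts. The closest to Ptch1 were Spata13 (0.98), Pdzd2 (0.96), Wif1 (0.95), Antxr2 and Cpne5 (0.94 each). Hhip and Ptch1 followed each other with 0.86, and Ihh and Boc ran opposite with -0.91.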

How the data were processed

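Bulk RNA was measured in 134 libraries and single-cell RNA in 4. Per the labels and the study's methods, RNA from laser-captured regions was amplified (Ovation RNA-Seq System V2), made into Nextera XT libraries and sequenced. The authors trimmed the reads with cutadapt, aligned them to mm10 with STAR 2.5.3a and counted read pairs on the exons of each gene with featureCounts 1.6.4, without strand. The deposited gene tables hold raw counts. The single-cell files hold deposited UMI count values per gene and barcode. A further table of the authors' own log2 ratios (62 columns) was not used.

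The 10 members, the lists of pathway genes and markers and the tests were chosen with earlier results of these data known. Besides the members, the text names Gli1, other pathway genes that passed in the same direction in at least 6 of 12 SM against OF comparisons or in the coronal contrast (some of these are not reported here), and the 5 genes most like each of Hhip, Ihh and Ptch1 over the groups. The 19768 genes that reached 1 CPM in more than 10% of the first captured libraries were scaled by TMM and fitted together by the quasi-likelihood test of edgeR 4.0.16 in R 4.3.3, two-sided, with Benjamini-Hochberg adjustment over all genes of a comparison and a threshold of 0.05. Adjusted p-values are from this test unless another tool is named. A numbered embryo left out was left out of every suture and age. SM and OF of the same number came from the same embryo by the litter label, so the embryo was a block except between ages. Residuals of libraries of the same embryo had a median correlation of 0.0484 over 80 pairs (19 over 0.1) and those of different embryos -0.0124. On simulated data for the coronal FR at E16.5 (4000 genes), 47% of 2-fold and 99% of 4-fold changes were recovered. For the coronal contrast these shares were 78% and 100%.

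Alternatives were no block, DESeq2 1.42.0, limma-voom (limma 3.58.1), median-ratio size factors, no filter, second coronal libraries in place of the first where they existed, and each embryo number left out. Cells with more than 800 genes and within 3 median absolute deviations of their library's median were clustered in scanpy 1.11.5 (2000 variable genes, 13 or 15 components, Leiden resolution 0.8, leidenalg 0.10.2) without 42 hedgehog genes. A cluster was called X-like from at least 3 markers of a class (2 for lists of up to 4 genes) among its leading 20 genes, if at least 2 were among the leading 10, no other class had as many in either, and 3 or more were detected in 10% of its cells. An erythroid name also required Alas2. No doublet caller was run, and barcodes of very high UMI counts were removed by the same limit.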

Additional observations from a re-analysis of the deposited data

Results flagged for a closer look

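In 16 of 200 groups of 5 libraries, a library of a member stood far from the other 4 by Dixon's test at the 95% level, where chance alone flags about 1 in 20 groups. For Boc these were embryo 2 of the coronal PA at E16.5 (89.3 CPM, others 32.0 to 36.1), of the lambdoid IP at E18.5 (68.3, others 55.7 to 58.9) and of the sagittal PA at E16.5 (28.7, others 39.1 to 41.9). For Cdon it was embryo 2 of the coronal SM at E18.5 (429.9, others 184 to 219) and for Gas1 embryo 2 of the lambdoid PA at E16.5 (8.96, others 18.1 to 19.1). For Gli2 it was embryo 5 of the coronal FR at E16.5 (38.7, others 109.9 to 153), and the same library was low for Sufu (13.5, others 36.4 to 51.3). For Gli3 these were embryo 4 of the frontal FR at E16.5 (82.6, others 99.2 to 105) and embryo 5 of the lambdoid PA (93.7, others 103 to 106) and SM (96.0, others 124 to 132) at E16.5. The same embryo was low for Ptch1 in the lambdoid IP (867, others 919.6 to 941). For Ihh it was embryo 5 of the lambdoid SM at E18.5 (1.38, others 0.116 to 0.214). For Smo these were embryo 2 of the coronal FR at E18.5 (264, others 151 to 178) and embryo 5 of the frontal FR at E18.5 (559, others 149 to 170.1), and for Sufu also embryo 1 of the frontal FR at E16.5 (43.6, others 27.8 to 31.0) and embryo 5 of the sagittal SM at E18.5 (32.3, others 33.8 to 34.2).

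Differences that themselves differed between groups, by a test of that difference in edgeR, were the coronal contrast of Hhip (4.06, adjusted p = 1.27e-19), Ptch1 (1.42, adjusted p = 3.64e-13), Ihh (1.58, adjusted p = 0.0119), Cdon (-0.66, adjusted p = 3.28e-05), Boc (-0.52, adjusted p = 0.00213), Gli3 (-0.33, adjusted p = 0.00455) and Sufu (-0.45, adjusted p = 0.0369). The difference between SM and OF changed with age for Cdon against the coronal FR (-0.72, adjusted p = 0.0468) and Gli2 against the coronal PA (-0.83, adjusted p = 0.0480). Of all genes 5.91% and 4.96% passed in these comparisons. Both of these calls, and that of Sufu in the coronal contrast, were lost under several alternatives given above.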

How the results depend on the processing

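The 74 calls of members for SM against OF ranged from 69 to 79 over the alternatives run, and the 7 calls of the coronal contrast from 6 to 7. Leaving out each embryo number in turn gave 69 to 75 calls for SM against OF, 6 in the coronal contrast, 0 to 1 for the change of the difference with age (2 in full), 1 to 3 for OF against OF (3 in full) and 7 to 15 between the ages (14 in full). Calls for the change with age numbered 4 in DESeq2, 6 without a filter, 1 with median-ratio size factors and 0 with the second coronal libraries. Calls for OF against OF numbered 8 in limma-voom and 6 without a filter. Calls between the ages numbered 8 with the second libraries, where Gli3 in the coronal SM also turned from -0.39 to 0.064 (adjusted p = 0.803). The cause of these shifts was not tested.

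Without the replicate block, which pairs regions of an embryo, members had 74 and 7 calls for SM against OF and the coronal contrast, as with it, but 2 in place of 3 for OF against OF and 1 in place of 2 for the change with age. Over all genes, calls for OF against OF went from 1797 to 2852 (coronal) and from 194 to 96 (lambdoid) at E16.5 without the block. Those for the change with age went up from 1169 to 1517 (coronal FR) and from 981 to 1395 (coronal PA) and down from 33 to 6 (lambdoid PA), 24 to 13 (lambdoid IP), 23 to 6 (sagittal) and 3 to 1 (frontal). All-gene counts moved by over 1.5 times in 13 of 33 comparisons in DESeq2, 11 in limma-voom, 6 without a filter, 2 with size factors, 11 with the second libraries and 8 to 15 with an embryo number left out. For SM against OF such moves were the coronal FR at E18.5 (698 calls, 1111 in DESeq2, 1253 in limma-voom, 1054 with the second libraries and 367 without number 2), the coronal FR at E16.5 (5380, and 3347 with the second libraries), the frontal suture (1742 and 2227 by age, 1150 and 1469 without number 4, and 1470 at E18.5 without number 5) and the lambdoid IP at E16.5 (2374, and 1549 without number 4). Median-ratio size factors in place of TMM moved the median of all genes by 0.108 to 0.135 in the 4 lambdoid comparisons, where Gli3 gained 3 calls and Smo 1. Other limits on genes per cell, components or resolution moved 10 to 15 of 110 to 120 single-cell values, all of clusters with a class name. A value here is the mean of the 2 libraries, and moved means by more than the SD between them. Unnamed clusters, among them those led by Tppp3, Atp1b1, Gpha2 and Tnn, were not followed under these settings, so their values were not checked. With a minimum of 1000 genes a cluster of 110 cells at E16.5, led by Tnn, Rgs5 and Mmp13, was named pericyte-like. A cluster of 592 cells at E18.5 was then named erythroid-like. Depth limits Ihh most, with 0 read pairs in 6 of 100 libraries.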
